A study of Homo sapiens with 4 samples.

Results

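The genes described here encode surface antigens of Ewing sarcoma cells and the synthases that build gangliosides of the GD2 series. They were chosen by symbol, 10 genes of 60617 in the table: CD99, STEAP1, STEAP2, IL1RAP, ADGRG2, LINGO1, CD276 and ENPP1 for the antigens, and B4GALNT1 and ST8SIA1 for the synthases. RNA-seq was made from SKNMC, an established human Ewing sarcoma cell line, kept for 24 h in the vehicle DMSO (2 libraries) or in CBL0137 at 1 µM (2 libraries). The compound belongs to the curaxins, which intercalate into DNA and hold the FACT histone chaperone on chromatin. Every library came from this single line, and no genotype differs between the groups. The labels name no separate cultures behind the libraries. The p-values therefore measure only the spread between these libraries, which may be technical.

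Antigens on the tumour cell surface are what antibodies, antibody-drug conjugates and engineered T cells bind. CD99 is a heavily glycosylated membrane protein whose strong staining is used to diagnose Ewing sarcoma. Gangliosides are sialic acid bearing glycolipids made in the Golgi: UGCG adds glucose to ceramide, B4GALT5 and B4GALT6 add galactose, ST3GAL5 adds the first sialic acid to give GM3, ST8SIA1 adds a further sialic acid to give GD3, and B4GALNT1 adds N-acetylgalactosamine, which turns GM3 into GM2 and GD3 into GD2. GD2 is itself an antibody target. In Ewing sarcoma the fusion of EWSR1 with an ETS factor gene, most often FLI1, drives several surface antigen genes through sites with the core GGAA.

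RefSeq promoter windows (GRCh38.p14) were found for 9 of the 10 genes. B4GALNT1 had no entry. Windows are shown for the 3 genes that passed the test described below and have one: CD99 and ENPP1, which fell, and ADGRG2, which rose. Each run is the 250 bases before the start site on the gene's own strand, with the 4-base core GGAA, or TTCC where it lies on the other strand, in capitals. CD99 is at chrX:2691045-2691294 (plus strand), ENPP1 at chr6:131807770-131808019 (plus strand) and ADGRG2 at chrX:19122469-19122718 (minus strand).
CD99: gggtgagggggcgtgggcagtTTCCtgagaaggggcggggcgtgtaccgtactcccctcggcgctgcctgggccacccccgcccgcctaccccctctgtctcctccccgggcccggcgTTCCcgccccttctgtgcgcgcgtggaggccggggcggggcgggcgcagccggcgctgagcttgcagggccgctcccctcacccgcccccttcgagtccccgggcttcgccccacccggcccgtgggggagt
ENPP1: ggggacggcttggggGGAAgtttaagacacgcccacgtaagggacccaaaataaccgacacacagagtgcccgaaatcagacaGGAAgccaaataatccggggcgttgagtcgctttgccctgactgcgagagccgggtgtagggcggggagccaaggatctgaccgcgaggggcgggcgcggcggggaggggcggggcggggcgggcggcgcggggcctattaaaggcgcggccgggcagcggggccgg
ADGRG2: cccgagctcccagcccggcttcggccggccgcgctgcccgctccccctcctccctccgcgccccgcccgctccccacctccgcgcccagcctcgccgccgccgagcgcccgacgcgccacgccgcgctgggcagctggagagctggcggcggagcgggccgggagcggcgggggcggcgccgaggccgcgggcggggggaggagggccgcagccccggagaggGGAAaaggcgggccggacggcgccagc
The core occurred 2 times in the CD99 window, 2 times in that of ENPP1 and 1 time in that of ADGRG2. It was searched on both strands, and 92.7% of 34961 windows of this length held it, with a median of 3 per window. The repeat GGAAGGAA, which holds the core 2 times, was in 3.06% of all windows and in 0 of the member windows. The bases were 78.0% G or C in the CD99 window, 68.8% in that of ENPP1 and 84.8% in that of ADGRG2. These matches describe letters in a short window and say nothing of binding, which was not measured.

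The libraries held 19625517 to 21061892 reads assigned to genes. Levels are given as CPM, reads scaled to a common library total with TMM factors. A gene was called higher or lower when its Benjamini-Hochberg adjusted p in edgeR's quasi-likelihood test was under 0.05 and its fold above 1.5. Over all 17374 tested genes this called 33.4%, with 18.2% higher in CBL0137 and 15.1% lower. Higher genes made up 54.6% of the calls, and 68.8% with library size alone. The label of the line was checked against marker lists: all 9 Ewing sarcoma markers were tested, with a summed level of 2909 and 2893 CPM in DMSO and 1666 and 1772 CPM in CBL0137, and 5 were called lower and 0 higher. This list includes CD99 and STEAP1, and 4 of its other 7 genes were lower. CCND1 made the largest part of its sum, at 1158 and 1144 CPM in DMSO and 527 and 574 CPM in CBL0137. EWSR1, not called, was at 400 and 400 CPM in DMSO and 349 and 357 CPM in CBL0137. Among markers of other cell types, the muscle list summed to at most 0.370 CPM (3 genes, 0 tested, MYOG at 0 reads). The endothelial list summed to 2.42 to 4.79 CPM (4 genes, 2 tested, 1 of these higher). The neuroblastoma list summed to 19.4 to 26.2 CPM (5 genes, 2 tested, 1 of these lower). The haematopoietic list summed to 108 to 163 CPM, nearly all of it PTPRC, with CD3E at 0 or 1 reads and neither of the 2 tested genes called. The fibroblast list summed to 947 and 939 CPM in DMSO and 1232 and 1225 CPM in CBL0137 (2 of 5 genes higher, 1 lower). In this list COL1A1 went from 127 and 119 to 471 and 441 CPM, whereas COL1A2 was not called. The epithelial list rose from 51.5 and 52.0 CPM to 114 and 115 CPM, with all 4 tested genes higher. Most of this sum was KRT18, at 45.8 and 46.6 CPM in DMSO and 99.3 and 97.3 CPM in CBL0137. KRT19 had 6 and 0 reads in DMSO and 26 and 30 in CBL0137. CDH1, not tested, had 0 reads in both DMSO libraries and 12 and 10 in CBL0137. The part of these shifts in the results on the antigens was not tested.

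Of the 10 genes, 9 passed the filter on low counts. B4GALNT1 and ADGRG2 rose, CD99 and ENPP1 fell, and STEAP1, STEAP2, IL1RAP, LINGO1 and CD276 were not called. ST8SIA1, at 1 to 6 reads per library, was not tested. The share of tested genes called was thus 4 of 9 against 33.4% of all genes. The median log2 fold change of the 9 was -0.11 (0.051 with library size alone), and that of all tested genes 0.012. CPM values of the groups did not overlap for 8 of the 9, as for 79.9% of all tested genes, so non-overlap alone sets none of them apart. Leaving out the TMM factors moved the median of all genes by 0.16, and the directions of the 9 genes held under each scaling of the counts except for STEAP2, which turned with library size alone, while LINGO1 turned with FPKM.

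**Figure D1:**
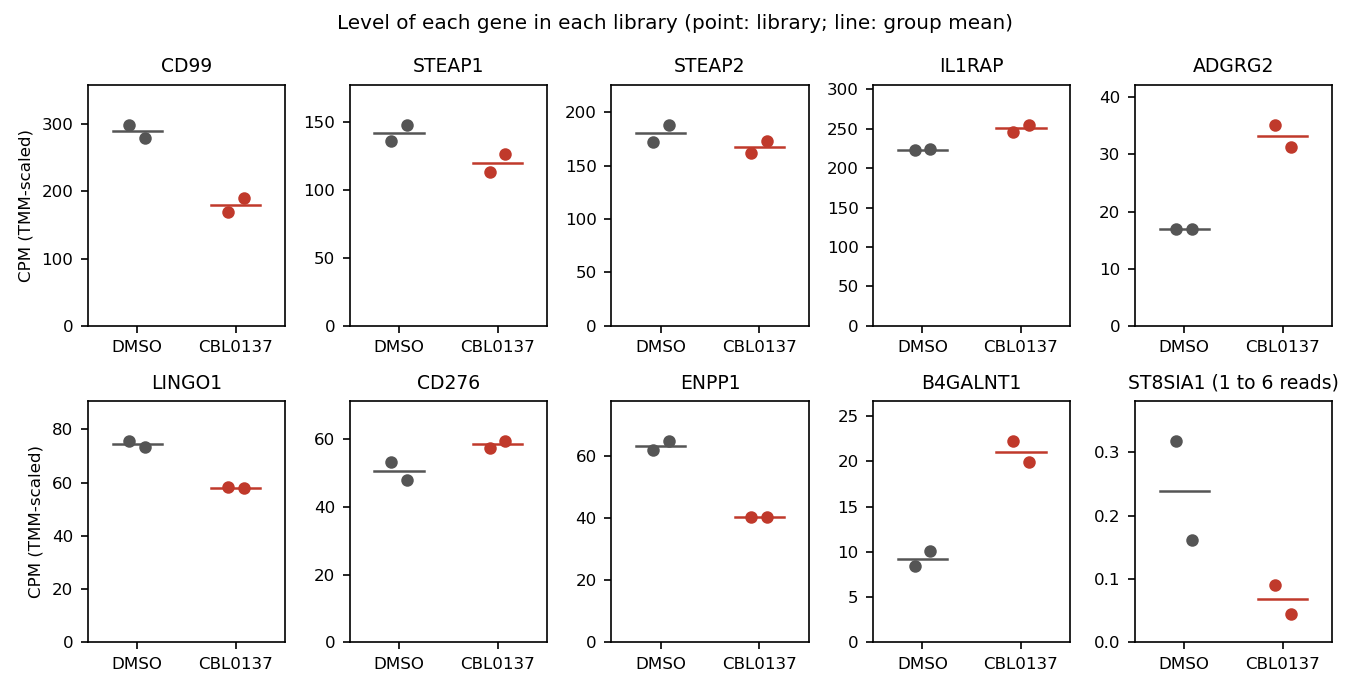
Level of each of the 10 genes in CPM (vertical axes from 0, a scale of its own in each panel) for the 2 DMSO and 2 CBL0137 libraries. Points are libraries and lines group means. CD99 and ENPP1 lie lower in both CBL0137 libraries and ADGRG2 and B4GALNT1 higher, whereas the STEAP2 points of the groups overlap and ST8SIA1 rests on 1 to 6 reads.

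CD99 (ENSG00000002586, GRCh37 chromosome X, 2609228 to 2659350, plus strand) fell with CBL0137. Its reads numbered 5651 and 5193 with DMSO against 3714 and 4192 with CBL0137, or 299 and 279 CPM against 169 and 189 CPM. Both treated libraries were below both controls. The log2 fold change was -0.69 (SE 0.06, edgeR adjusted p = 4.1e-14), a level 1.61-fold lower. The change was at -0.53 with library size alone, under the fold limit. Of all tested genes, 13.9% had a more negative change. CD99 was still the highest of the 10 genes in the authors' FPKM, at 177 and 170 in DMSO and 108 and 120 in CBL0137, and 98.7% of tested genes were below it in DMSO.

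CD99 lies in the pseudoautosomal region, which is present on both X and Y, so reads of such genes can align to 2 places. Reads aligned to more than 1 place were 6.91% to 7.13% of all counted reads in the 4 libraries and entered no gene. The neighbouring gene XG, which encodes a blood group antigen related to CD99, fell from 31.4 and 34.5 to 14.3 and 14.99 CPM (log2 fold change -1.17, SE 0.10). CD99L2, a CD99 paralog elsewhere on X, was at 76.4 and 77.6 CPM in DMSO and 54.7 and 60.7 CPM in CBL0137, a log2 fold change of -0.42 (SE 0.07) under the fold limit. Of the 11 tested genes in the list of the CD99 family and the pseudoautosomal region, 3 were lower, 1 higher and 7 not called (median -0.14, and 0.014 with library size alone). The third lower gene was GTPBP6 (-0.90) and the higher one ASMTL (0.86). The mitochondrial ADP/ATP carrier gene SLC25A6 was at 394 and 368 CPM in DMSO and 269 and 256 CPM in CBL0137 (-0.54, SE 0.05), and was called only without DMSO replicate 2 (-0.60). The genes of this region therefore did not all move with CD99.

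ENPP1 (ENSG00000197594, chromosome 6, 132129156 to 132216295, plus strand) encodes a membrane enzyme that cleaves extracellular ATP to AMP and pyrophosphate and also degrades the innate immune messenger cGAMP. It fell as well. It had 61.9 and 64.7 CPM in DMSO and 40.2 and 40.2 CPM in CBL0137, with no overlap between groups. The log2 fold change was -0.65 (SE 0.07, edgeR adjusted p = 8.4e-11), a level 1.57-fold lower. This lies close to the fold limit, and the call was lost with library size alone (-0.50), log2(FPKM + 1) (-0.42) and log2(FPKM + 0.1) (-0.50).

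Its relatives with a tested level fell too. ENPP3, an ectoenzyme of the same family, went from 9.25 and 8.06 to 2.91 and 2.17 CPM (log2 fold change -1.77, SE 0.20). ENPP2, which encodes autotaxin, the secreted enzyme that makes lysophosphatidic acid, went from 2.59 and 2.31 to 0.865 and 0.903 CPM (-1.47, SE 0.35). These were the other 2 tested ENPP genes, and they are named after their values were seen. ENPP4, ENPP5, ENPP6 and ENPP7 had at most 5 reads in any library. In the wider list of extracellular nucleotide, pyrophosphate and cGAMP genes, 5 of 18 tested were lower, 4 higher and 9 not called (median -0.15, and 0.0083 with library size alone). Without CBL0137 replicate 1 the number higher was 2. The other lower members were ALPL, the alkaline phosphatase that hydrolyses pyrophosphate (133 and 128 to 53.7 and 53.9 CPM, log2 fold change -1.28, SE 0.06), and SLC20A1, a phosphate importer (133 and 131 to 65.5 and 65.5 CPM, -1.01, SE 0.06). The enzymes that make and hydrolyse extracellular pyrophosphate were thus both lower, ALPL more than ENPP1 in log2 units, a difference that was not tested.

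ADGRG2 (ENSG00000173698, chromosome X, 19007425 to 19140755, minus strand), an adhesion G protein coupled receptor also known as GPR64, rose with CBL0137. It had 322 and 317 reads in DMSO and 773 and 692 in CBL0137, or 17.0 and 17.0 against 35.2 and 31.3 CPM. The groups did not overlap, and the level was 1.95-fold higher (log2 fold change 0.96, SE 0.10, edgeR adjusted p = 1.0e-11). The call held in all 12 other fits run at this fold limit, at 0.76 to 1.12. Of all tested genes, 12.8% had a larger rise.

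Among the adhesion receptors, 5 of 19 tested were higher, 4 lower and 10 not called (median 0.17, and 0.33 with library size alone), shares of 26.3% and 21.1% against 18.2% and 15.1% of all genes. ADGRE5, the gene of the leukocyte receptor CD97, rose from 36.8 and 35.6 to 68.4 and 67.8 CPM (log2 fold change 0.91, SE 0.07). ADGRB3, a brain receptor for complement-like ligands, fell from 32.0 and 34.0 to 12.2 and 12.2 CPM (-1.44, SE 0.10). A further 12 receptors of the list had at most 15 reads in any library and were not tested. ADGRF2P matched no gene of the table.

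LINGO1 (ENSG00000169783, chromosome 15, 77905369 to 78113242, minus strand) encodes a leucine-rich repeat protein that joins the Nogo receptor complex and is better known from neurons. It was at 75.5 and 73.3 CPM in DMSO and 58.4 and 57.8 CPM in CBL0137. Both treated libraries were lower, but the difference did not reach the fold limit (log2 fold change -0.36, SE 0.06, edgeR adjusted p = 6.5e-06). In FPKM the order was not the same: 3.84 and 3.87 in DMSO against 3.83 and 5.84 in CBL0137, with CBL0137 replicate 2 alone high, and the log2(FPKM + 1) difference was 0.24. The counts of the 2 CBL0137 libraries, 1284 and 1280 reads, showed no such gap.

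The partners of LINGO1 in the receptor complex went different ways. RTN4R, the Nogo receptor itself, fell from 15.9 and 13.4 to 9.15 and 9.21 CPM (log2 fold change -0.68, SE 0.13). The RTN4R call held in 8 of the 12 other fits. Its value was under the fold limit when DMSO replicate 1 was left out (-0.57), and likewise with library size alone (-0.52) and log2(FPKM + 1) (-0.45). NGFR, the neurotrophin receptor that signals in the same complex, rose from 135 and 127 to 226 and 239.6 CPM (0.83, SE 0.05), with 22.3% of its exon bases shared with another annotated gene. ROCK1, a kinase that acts below RhoA in this pathway, fell from 111 and 116 to 72.8 and 70.05 CPM (-0.67, SE 0.06), under the limit with library size alone (-0.51) and with log2(FPKM + 1) (-0.53). In all, the list had 3 of 15 tested genes higher, 3 lower and 9 not called (median -0.14, and 0.023 with library size alone).

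STEAP1 (ENSG00000164647, chromosome 7, 89783770 to 89794143, plus strand) and STEAP2 (ENSG00000157214, chromosome 7, 89796904 to 89867451, plus strand) are neighbouring paralogs with 6 membrane passes. STEAP2 reduces iron and copper, whereas STEAP1 lacks the domain that binds NADPH. STEAP1 was at 135 and 148 CPM in DMSO and 113 and 126 CPM in CBL0137, so that both treated libraries were lower by a small margin. Its log2 fold change was -0.24 (SE 0.06, edgeR adjusted p = 5.0e-04), and it stood under the fold limit in each of the 12 other fits. STEAP2 was at 172 and 188 CPM in DMSO and 162 and 173 CPM in CBL0137, with overlapping groups (log2 fold change -0.11, SE 0.06, adjusted p = 0.0921, and 0.051 with library size alone).

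The ratio of STEAP2 to STEAP1 needs no scaling between libraries. In reads per kilobase of annotated exon it was 0.225 (95% exact interval 0.214 to 0.237) and 0.226 (0.215 to 0.237) in the DMSO libraries. With CBL0137 it was 0.253 (0.240 to 0.266) and 0.242 (0.230 to 0.254). Intervals cover counting error only. STEAP2 thus lay a little higher against STEAP1 in both treated libraries, a shift of 0.13 in log2 units, but FPKM gave a shift of -0.21. With 2 libraries against 2 the smallest p of an exact two-sided permutation test is 0.333, so no test is given. The rest of the family was close to silent. STEAP3 had 5 to 11 reads, STEAP4 0 to 2 and STEAP1B 1 to 2 in any library. Of the 2 tested STEAP genes 0 were called, also with DESeq2. With edgeR, STEAP1 had an adjusted p under 0.05 and was uncalled by the fold limit alone.

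IL1RAP (ENSG00000196083, chromosome 3, 190231840 to 190377539, plus strand) encodes the accessory chain that IL1R1 and related receptors need for signalling. It was at 223 and 224 CPM in DMSO and 246 and 255 CPM in CBL0137. Both treated libraries were higher, by less than the fold limit (log2 fold change 0.17, SE 0.05, edgeR adjusted p = 0.0054). Its ligand-binding partner IL1R1 had 0, 0, 1 and 0 reads in DMSO replicates 1 and 2 and CBL0137 replicates 1 and 2. Of the 26 genes in the IL-1 receptor list 16 were not tested and 8 had no read in any library. Of the 10 tested, 3 were higher, 1 lower and 6 not called (median 0.078, and 0.24 with library size alone), and without DMSO replicate 2 the number lower was 0. SIGIRR, an inhibitory receptor of the family, rose from 8.51 and 8.06 to 18.6 and 17.8 CPM (log2 fold change 1.13, SE 0.12). TOLLIP, an adaptor that dampens this signalling, rose from 40.6 and 45.4 to 68.8 and 63.5 CPM (0.62, SE 0.07), a call lost without DMSO replicate 1 (0.52) or CBL0137 replicate 1 (0.56). The adaptor gene MYD88 was at 8.14 and 8.54 CPM in DMSO and 7.37 and 8.27 CPM in CBL0137 (-0.09, SE 0.15, and 0.066 with library size alone). IL1RAP was thus abundant in libraries that held almost no reads of IL1R1.

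CD276 (ENSG00000103855, chromosome 15, 73976307 to 74006855, plus strand), the immune checkpoint ligand B7-H3, was at 53.4 and 48.0 CPM in DMSO and 57.5 and 59.4 CPM in CBL0137. The treated libraries were slightly higher, by less than the fold limit (log2 fold change 0.21, SE 0.07, edgeR adjusted p = 0.0102). CD276 had the highest FPKM of the 18 B7 and butyrophilin genes in all 4 libraries, at 12.2 and 10.7 in DMSO and 14.8 and 14.5 in CBL0137. In CPM per kilobase of annotated exon it came after the butyrophilin gene BTN2A1, at 9.74 and 8.75 against 13.2 and 13.0 in DMSO and 10.5 and 10.8 against 12.4 and 12.3 in CBL0137. CD274, which encodes PD-L1, had 0 and 0 reads in DMSO and 7 and 5 in CBL0137 and was not tested. NCR3LG1, which encodes B7-H6, a ligand of a natural killer cell receptor, fell from 22.6 and 30.7 to 16.98 and 16.7 CPM (-0.66, SE 0.11). The NCR3LG1 call held in 8 of the 12 other fits. It stood at -0.50 with library size alone, -0.36 with log2(FPKM + 1) and -0.44 when DMSO replicate 2 was left out, all short of the fold limit. In the list of B7 genes and the related butyrophilins, 2 of 9 tested were higher, 2 lower and 5 not called (median -0.078, and 0.081 with library size alone, where 0 were lower). BTNL9, a butyrophilin-like gene, was among those that rose, from 0 and 2 reads to 65 and 55 reads. It was under the fold limit with log2(FPKM + 1) (0.57).

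**Figure D2:**
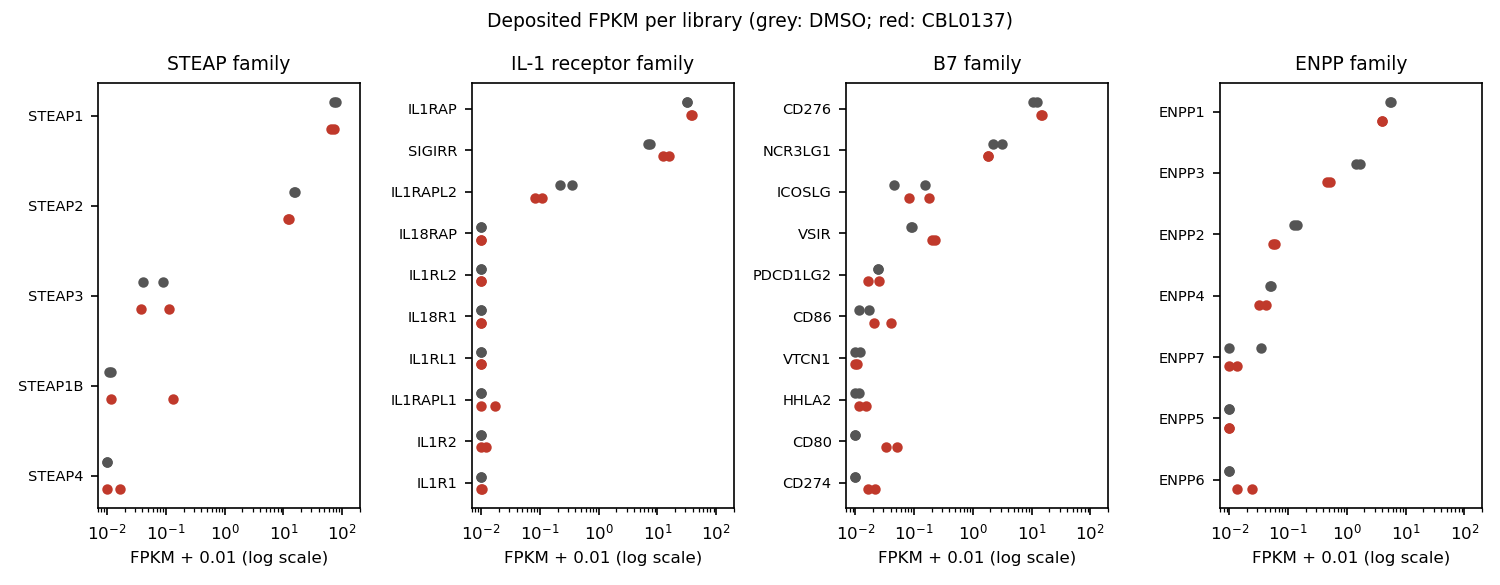
FPKM per library, plus 0.01, on a log axis for the STEAP, IL-1 receptor, B7 ligand and ENPP genes, with DMSO in grey and CBL0137 in red. Points at the left edge are genes listed at 0. STEAP1, IL1RAP, CD276 and ENPP1 each stand at the top of their family in all 4 libraries.

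**Figure D3:**
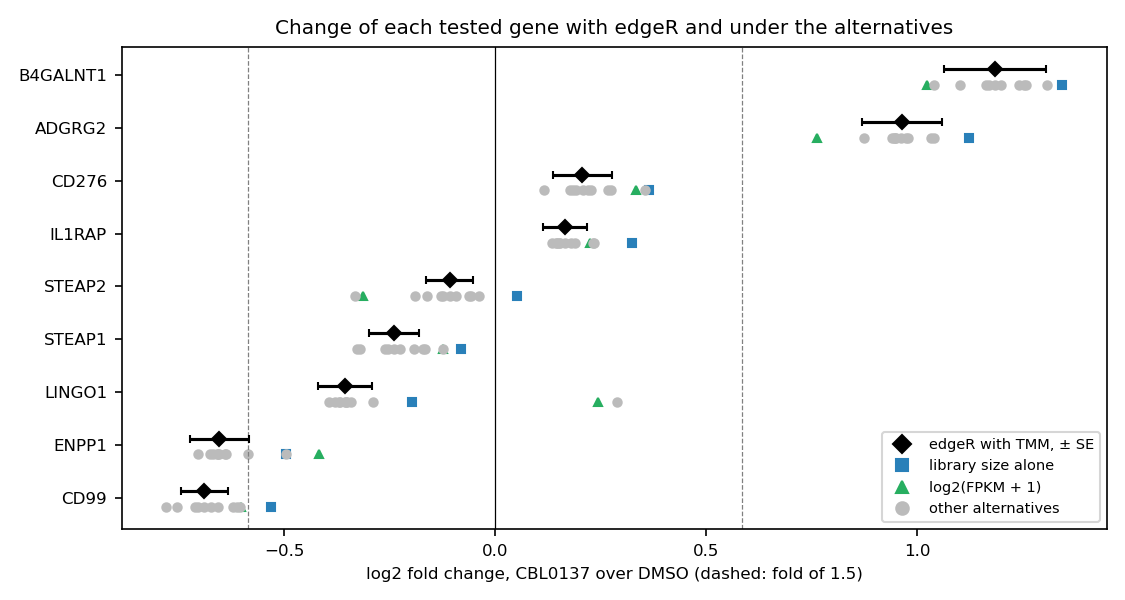
Log2 fold change of the 9 tested genes, CBL0137 over DMSO. Black diamonds with bars are the edgeR values with their SE, other symbols are alternative fits, and dashed lines mark a fold of 1.5. ADGRG2 and B4GALNT1 lie past the limit in every fit, CD99 and ENPP1 fall short of it with library size alone (-0.53 and -0.50), and LINGO1 changes sign with FPKM.

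B4GALNT1 (ENSG00000135454, chromosome 12, 58017192 to 58027022, minus strand), the synthase of GM2 and GD2, rose the most of the 9 tested genes. It had 159 and 188 reads in DMSO and 488 and 440 in CBL0137, or 8.41 and 10.1 against 22.2 and 19.9 CPM. Both treated libraries were far above both controls, and the level was 2.27-fold higher (log2 fold change 1.19, SE 0.12, edgeR adjusted p = 2.4e-11). The call held in all 12 other fits at this fold limit, at 1.02 to 1.34. Of the exon bases of B4GALNT1, 27.1% are shared with SLC26A10P, a pseudogene on the opposite strand. That pseudogene had 3 to 13 reads per library, so its own reads are few beside those of B4GALNT1, but reads in the shared bases cannot be assigned with certainty.

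ST8SIA1 (ENSG00000111728, chromosome 12, 22216707 to 22589975, minus strand), the GD3 synthase, had 6 and 3 reads in DMSO and 2 and 1 in CBL0137. Its FPKM was at most 0.00188 in any library. At this depth a difference between the groups cannot be read. In FPKM, B4GALNT1 stood 1396 and 3701 times above ST8SIA1 in the DMSO libraries and 6811 and 7349 times above it with CBL0137. By counts the ratios were smaller, so the size of the gap depends on the unit. B4GALNT1 had 48.7 times the reads per kilobase of ST8SIA1 in DMSO replicate 1 (95% exact interval 21.9 to 135) and 115 times in DMSO replicate 2 (38.8 to 563). In the CBL0137 libraries the ratios were 448 (123 to 3710) and 808 (144 to 31980). The wide intervals reflect the 1 to 6 reads of ST8SIA1. The transcript that commits GM3 to the GD3 and GD2 branch was thus near the detection limit in both groups, whereas the transcript for the next step was present and higher with CBL0137.

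The other synthesis genes did not follow a single direction. Of 15 tested genes for gangliosides and related glycolipids, B4GALNT1 included, 4 were higher, 2 lower and 9 not called (median 0.20, and 0.36 with library size alone), that is 26.7% and 13.3% against 18.2% and 15.1% of all genes. UGCG, the first step, went from 22.0 and 26.1 to 35.6 and 36.7 CPM (log2 fold change 0.59, SE 0.09), just past the limit. The UGCG call held in 7 of the 12 other fits. Among those that lost it were the fits without DMSO replicate 1 (0.45), without CBL0137 replicate 2 (0.56), with DESeq2 (0.57) and with log2(FPKM + 1) (0.58). B4GALT5 was at 95.2 and 98.0 CPM in DMSO and 108 and 114 CPM in CBL0137 (0.20, SE 0.06), and B4GALT6 had 0 to 4 reads. ST3GAL5, the GM3 synthase, was at 33.3 and 38.0 CPM in DMSO and 30.6 and 32.7 CPM in CBL0137 (-0.17, SE 0.08, adjusted p = 0.0770, and 0.015 with log2(FPKM + 1)). ST3GAL1, a sialyltransferase that acts on later gangliosides and on mucin-type glycans, fell from 76.6 and 77.7 to 44.8 and 46.8 CPM (-0.75, SE 0.07), and was under the fold limit with log2(FPKM + 1) (-0.56). B3GALNT1, the globoside synthase, fell from 27.6 and 24.2 to 8.60 and 9.12 CPM (-1.55, SE 0.11). The other 2 that rose, B3GALT4 (1.57, SE 0.33) and ST8SIA5 (0.92, SE 0.34), which act on later gangliosides, were low, with 13 to 28 and 21 to 23 reads in DMSO. Without DMSO replicate 1 or without CBL0137 replicate 2, 2 synthesis genes were called higher in place of 4, as with DESeq2 and with log2(FPKM + 1).

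The list for the breakdown of gangliosides and related sphingolipids had 13 tested genes, most of them lysosomal. It includes ARSA (log2 fold change 0.65, called higher), ASAH1 (-0.27, not called) and SMPD1 (0.046, not called), which act on related sphingolipids rather than gangliosides. Of the 13, 7 were higher, 2 lower and 4 not called (median 0.63, against 0.012 for all genes). With library size alone the counts were 8 and 1, and without DMSO replicate 2 the number lower was 1. The shares of 53.8% higher and 15.4% lower stand beside 18.2% and 15.1% of all genes. NEU1, the lysosomal sialidase, rose from 31.03 and 29.0 to 93.9 and 85.9 CPM (log2 fold change 1.58, SE 0.07, edgeR adjusted p = 3.4e-22). GM2A, the activator that presents GM2 to its hexosaminidase, rose from 16.5 and 14.8 to 23.9 and 27.6 CPM (0.72, SE 0.10). HEXA, which encodes a subunit of that hexosaminidase, was called higher from 6.29 and 5.80 to 10.4 and 9.30 CPM (0.71, SE 0.16), but at -0.0185 with log2(FPKM + 1). NEU3, the sialidase of the plasma membrane, fell from 38.3 and 40.6 to 26.1 and 25.9 CPM (-0.60, SE 0.08), and fell short of the limit with library size alone (-0.44), upper-quartile factors (-0.53) or log2(FPKM + 1) (-0.50), or when DMSO replicate 2 was left out (-0.57).

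Genes that supply sialic acid, the sugar that defines gangliosides, were lower in 4 of 10 and higher in 1 (median -0.35, 40.0% lower against 15.1% of all genes), and 3 were lower and 2 higher with library size alone. CMAS, which activates sialic acid in the nucleus, fell from 66.4 and 64.9 to 34.4 and 33.2 CPM (log2 fold change -0.96, SE 0.07). It lies within the span of ST8SIA1 on the opposite strand, with 0 exon bases shared. GFPT1, the entry enzyme of the hexosamine pathway, fell from 265.5 and 267 to 149.5 and 163 CPM (-0.77, SE 0.05). The other lower members were GNE (-0.85), the rate-limiting enzyme of sialic acid synthesis, and NANP (-0.59). The gene that rose was SLC35A2 (0.62), which encodes the transporter of UDP-galactose into the Golgi, and without DMSO replicate 2 the list had 0 higher. GNE, NANP and SLC35A2 were named after their values were seen.

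**Figure D4:**
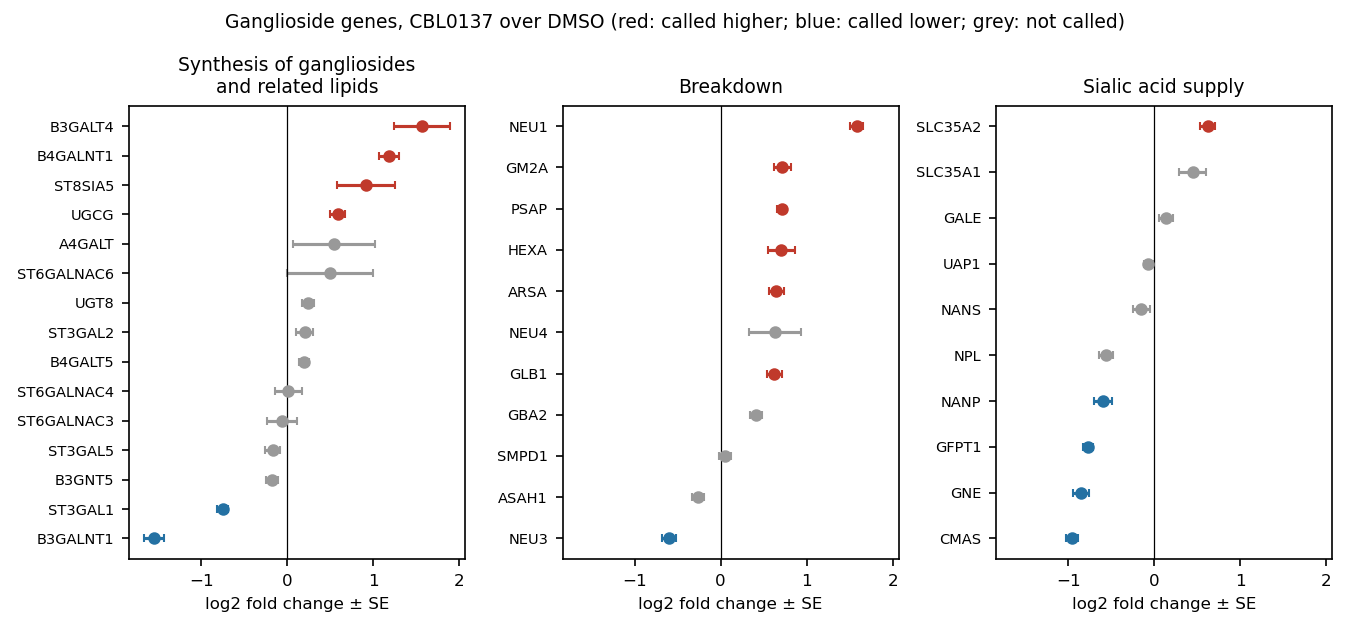
Log2 fold change with SE, CBL0137 over DMSO, of the tested genes for glycolipid synthesis (15), breakdown of gangliosides and related sphingolipids (11 of 13) and sialic acid supply (10). Red genes were called higher, blue genes lower and grey genes not called. NEU1 lies highest of the breakdown genes drawn, whereas CMAS, GNE and GFPT1 lie lowest in the supply list.

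Of 29 tested genes for other surface antigens of Ewing sarcoma and further paediatric tumours, 10 were lower, 5 higher and 14 not called (median -0.25). The shares were 34.5% lower and 17.2% higher against 15.1% and 18.2% of all genes, and with library size alone 7 were lower and 7 higher. FCGRT, the neonatal Fc receptor, fell from 1068 and 995 to 299.5 and 320 CPM (log2 fold change -1.74, SE 0.06). ALCAM, an adhesion molecule of the immunoglobulin family, fell from 266 and 263.5 to 87.4 and 94.0 CPM (-1.55, SE 0.06). CD24 matched no gene of the table by a symbol of its own. Across all 12 context lists, 155 genes other than the 10 were tested, of which 36 were higher and 36 lower, against 18.2% and 15.1% of all genes. With library size alone 46 were higher and 26 lower.

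Levels of different genes can be set beside each other only per length. In the authors' FPKM the order in DMSO was CD99 (174), STEAP1 (74.5), IL1RAP (32.05), STEAP2 (15.5), CD276 (11.4), ENPP1 (5.62), LINGO1 (3.85), B4GALNT1 (2.68), ADGRG2 (2.24) and ST8SIA1 (0.00131), as means of 2 libraries. The FPKM ranges of the 2 libraries of neighbours in this order did not overlap. With CBL0137 the FPKM of B4GALNT1, 7.10 and 5.89, passed that of ENPP1, 3.901 and 4.01, and ADGRG2 at 4.87 and 4.14 FPKM also lay above ENPP1. The FPKM of LINGO1, 3.83 and 5.84, spanned those of ENPP1 and ADGRG2, so these neighbours did not differ beyond their spread. Part of the order rests on the length used. In CPM per kilobase of all annotated exons STEAP1 stood first in DMSO at 87.7 and 95.7, above CD99 at 61.5 and 57.4, and with CBL0137 both B4GALNT1, at 2.82 and 2.52, and ADGRG2, at 3.46 and 3.08, stayed below ENPP1 at 3.52 and 3.52. Under both measures ADGRG2 and B4GALNT1 were the lowest of the tested genes in DMSO, and ST8SIA1 was last in both groups.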

How the data were processed

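RNA-seq of 4 SKNMC libraries was used, 2 with DMSO and 2 with CBL0137, grouped by their titles. The authors deposited raw read counts per gene: per the series' design text, reads were trimmed with Trim Galore, aligned to hg19 with HISAT2 and counted with HTSeq 0.11.1. The authors also deposited FPKM values, which scale reads to gene length and depth; the sources used here do not give the tool, annotation or strand setting. The submitters' processing notes also name mm10, without its use. Reads in no gene were 8.53% to 10.3%, and ambiguous reads 8.75% to 9.34%, of counted reads; 6 entries naming no gene were left out.

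Symbols came from a list of identifiers and positions from GENCODE release 44 on GRCh37. Counts were tested with edgeR 4.0.16 (R 4.3.3; TMM, filterByExpr, group only) over all 17374 genes kept. The SE was taken from the F statistic, as |log2 fold change|/√F. Counts of same-group libraries differed beyond sampling noise (chi-square per degree of freedom 3.12 and 2.82). Alternatives used DESeq2 1.42.0, limma 3.58.1 on log2(FPKM + 1) or log2(FPKM + 0.1), other scalings and filters, a replicate block and each library left out. The edgeR, DESeq2 and limma code was tested on simulated counts. The 10 genes and the 12 context lists were chosen with earlier results of these data known. Besides the 10, the 2 tested genes with the smallest p of each list and a fixed set of pathway partners are named, 37 genes in all, of which 2 are not reported here. Further genes were named after their values were seen.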

Additional observations from a re-analysis of the deposited data

How the results depend on the processing

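Across 12 other fits, ADGRG2 and B4GALNT1 stayed called higher, and STEAP1, IL1RAP and CD276 kept their direction and stayed under the limits. Leaving out each library in turn gave log2 fold changes of -0.78 to -0.61 for CD99, -0.70 to -0.64 for ENPP1, 0.87 to 1.04 for ADGRG2 and 1.04 to 1.31 for B4GALNT1, and ended no call among the 10 genes. With library size alone CD99 was at -0.53 and ENPP1 at -0.50, so that 0 genes were called lower, and STEAP2 was at 0.051 and MYD88 at 0.066. With log2(FPKM + 1) ENPP1 was at -0.42, LINGO1 at 0.24, ST3GAL5 at 0.015 and HEXA at -0.0185, and with log2(FPKM + 0.1) the values were -0.50, 0.29, 0.017 and -0.0172; each unit left 1 of the 10 genes called lower. Without the fold limit 4 were called higher and 4 lower, and with a fold above 2 the counts were 1 and 0. Over the context lists the counts of 36 higher and 36 lower became 56 and 61 without the fold limit and 15 and 14 above 2-fold, and log2(FPKM + 1) left 21 lower. Over all genes log2(FPKM + 1) called 1860 higher and 1363 lower, against 3166 and 2632. The share of tested genes below CD99 in DMSO was 96.8% per exon length and 98.7% with FPKM. The log2 ratio of B4GALNT1 to ST8SIA1 was 3.01 higher with CBL0137 by reads and 1.64 by FPKM, values that rest on the 1 to 6 reads of ST8SIA1 and from which no change is read, and that of STEAP2 to STEAP1 0.13 by reads and -0.21 by FPKM. The cause of these shifts was not tested. No effect shared by replicate number was seen (correlation of deviations 0.0080 across genes). This cannot show whether samples were paired, which the labels do not say. With the replicate block 2 of the 10 genes were called higher and 2 lower, and 36 and 36 context genes. Depth limits ST8SIA1, IL1R1, CD274 and the STEAP paralogs, where 0 reads allow up to 3.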

Other observations

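Surface and intracellular handling of iron and copper, the metals that STEAP2 reduces, was set beside the STEAP genes. Of 13 tested genes 3 were higher, 2 lower and 8 not called (median 0.33, and 0.49 with library size alone, where 6 were higher and 2 lower). SLC11A2, the importer of ferrous iron that STEAP enzymes feed, rose from 53.02 and 55.3 to 91.6 and 91.0 CPM (log2 fold change 0.75, SE 0.06, edgeR adjusted p = 1.0e-13). SLC39A14, an importer of zinc and of iron not bound to transferrin, fell from 230.2 and 229.8 to 122 and 129 CPM (-0.87, SE 0.05, adjusted p = 9.2e-18). The transferrin receptor gene TFRC was at 282 and 277 CPM in DMSO and 400 and 407 CPM in CBL0137 (0.53, SE 0.05), under the fold limit. CYBRD1, a ferric reductase of another family, rose from 19.8 and 20.4 to 30.4 and 30.8 CPM (0.61, SE 0.09), and was named after its values were seen.

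PTPRC, which encodes the leukocyte phosphatase CD45, stood at 162 and 162 CPM in DMSO and 107 and 124 CPM in CBL0137 (log2 fold change -0.49, SE 0.06, under the fold limit). The haematopoietic markers CD3E, CD14 and LYZ had at most 11 reads in any library.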
